A study of Mus musculus with 6 samples.

Results

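The Notch pathway passes signals between touching cells. A ligand of the Jagged or Delta-like family on one cell engages a Notch receptor on its neighbour, the receptor is cut by ADAM proteases and gamma-secretase, and the freed intracellular domain enters the nucleus, where it joins the DNA-binding protein RBPJ and switches on targets such as the HES and HEY repressors and Nrarp. In liver the pathway is known for bile duct formation through Jag1 and Notch2, and for endothelial and arterial identity through Dll4 and Notch1.

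The genes described here are 10 members of this pathway, taken by symbol from a table of 17975 genes, of which 13805 had enough counts to be tested. They are the receptors Notch1 (gene ID 18128), Notch2 (18129) and Notch3 (18131), the ligands Jag1 (16449), Jag2 (16450) and Dll4 (54485), the transcription factor gene Rbpj (19664), and the targets Hes1 (15205), Hey1 (15213) and Nrarp (67122). All 10 were in the table and all 10 were tested. They were measured by RNA-seq of whole liver from 3 Hom mice, which are Nek7 fl/fl with Alb-Cre, and 3 WT mice, with 1 library per mouse. Alb-Cre is driven by the albumin promoter and is used to delete Nek7 in hepatocytes. Nek7 was measured here in whole liver alone, so its level in each cell type is not known. The floxed and Alb-Cre lines are on a C57BL/6 background. The study's breeding scheme counts as WT mice with the floxed alleles or with Alb-Cre alone, and it is not given in the sources used here which of these the 3 sequenced WT mice were, nor the age of the 6 mice.

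The libraries held 19349418 to 19730236 estimated counts. Nek7, the deleted gene, had 1127, 1077 and 1036 counts in WT replicates 1 to 3 against 310, 439 and 387 in Hom replicates 1 to 3, in the direction the labels give. The Y-linked gene Ddx3y had 0 counts in Hom replicate 1 and 630 to 1125 in the other 5 livers, so that library stands apart in sex-linked genes. Some results are also given without that library. RNA of whole tissue was measured, so fewer cells of a type and less RNA per cell cannot be told apart. Markers of several liver cell types differed between the groups. Of 11 cholangiocyte markers (the cells of bile ducts), 10 rose in Hom livers, and their summed level was 86.3 to 112 CPM (counts for each 1000000 of a library scaled with TMM factors) in WT livers and 724 to 989 CPM in Hom livers. Of 8 sinusoidal endothelial markers, 7 fell, with a summed level of 233 to 316 CPM in WT and 106 to 121 CPM in Hom livers. Of 16 hepatocyte markers, 9 fell, among them Alb (log2 fold change −1.26) and Apoa1 (−0.67), while Apob was at −0.33 and did not pass. Without 1 liver, 4 (without Hom replicate 3) to 12 (without Hom replicate 1) of these markers fell, and 6 without WT replicate 2. With libraries scaled by their size alone, 6 hepatocyte markers and 4 sinusoidal markers fell. Their median log2 fold changes were then −0.22 and −0.73, where that of all genes was 0.45. No marker of any list was at 0 in every liver.

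The promoters of 5 of these genes are shown. Nrarp stands for the targets, of which Hes1 and Hey1 had no entry in the promoter table. Notch2, Jag1, Dll4 and Rbpj were added after their values were seen, because they are the 4 of the 10 genes that passed the test of Hom against WT. Each sequence is the 250 bases before the transcription start on the strand of the gene, 5′ to 3′, from RefSeq on GRCm38.p6. Capitals mark a match to the RBPJ core TGGGAA or to the HES N-box CACNAG on either strand, where N is any base. The window of Notch2 is chr3:98013288-98013537 on the plus strand, that of Jag1 is chr2:137116521-137116770 on the minus strand, that of Dll4 is chr2:119325534-119325783 on the plus strand, that of Rbpj (the first of its 2 starts) is chr5:53590096-53590345 on the plus strand, and that of Nrarp is chr2:25180508-25180757 on the plus strand.
Notch2: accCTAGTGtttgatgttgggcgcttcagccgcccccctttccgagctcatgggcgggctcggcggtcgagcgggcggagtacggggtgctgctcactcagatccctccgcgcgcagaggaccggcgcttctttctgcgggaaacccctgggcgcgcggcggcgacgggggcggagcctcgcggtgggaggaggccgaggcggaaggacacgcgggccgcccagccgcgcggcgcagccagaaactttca
Jag1: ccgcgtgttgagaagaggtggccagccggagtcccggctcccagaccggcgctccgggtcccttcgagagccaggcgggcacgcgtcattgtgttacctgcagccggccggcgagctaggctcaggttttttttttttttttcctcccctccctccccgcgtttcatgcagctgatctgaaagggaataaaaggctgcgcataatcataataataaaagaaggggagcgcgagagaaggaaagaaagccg
Dll4: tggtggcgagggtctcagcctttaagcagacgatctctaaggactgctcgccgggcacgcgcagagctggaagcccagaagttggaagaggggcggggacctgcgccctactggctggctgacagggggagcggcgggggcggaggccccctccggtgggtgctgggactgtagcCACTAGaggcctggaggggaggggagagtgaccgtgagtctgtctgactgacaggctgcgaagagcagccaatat
Rbpj: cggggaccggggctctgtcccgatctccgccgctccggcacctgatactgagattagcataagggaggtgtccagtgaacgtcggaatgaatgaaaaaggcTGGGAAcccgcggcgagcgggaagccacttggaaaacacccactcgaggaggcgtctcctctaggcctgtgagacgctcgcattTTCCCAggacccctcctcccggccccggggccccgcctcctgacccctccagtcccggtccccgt
Nrarp: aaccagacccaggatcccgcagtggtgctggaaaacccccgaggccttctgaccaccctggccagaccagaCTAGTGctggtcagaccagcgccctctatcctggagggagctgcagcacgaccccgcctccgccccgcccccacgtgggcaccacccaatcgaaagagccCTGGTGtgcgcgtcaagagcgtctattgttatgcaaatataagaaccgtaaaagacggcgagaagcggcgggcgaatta

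The RBPJ core stood at 2 places in the Rbpj window, 149 to 144 bases before the start on the strand of the gene and 65 to 60 bases before it on the other strand. It was in 21.6% of 32851 promoter windows of the same length, and at 2 or more places in 2.77% of them. The longer RBPJ site GTGGGAA, which contains the core, was in 5.42% of windows and in none of those of the 8 members that matched the promoter table. The N-box, the site that HES repressors are known to bind, was in 36.7% of windows, and at 2 or more places in 8.18% of them. Of the 8 members with a window, 5 held it: Notch1, Notch2 and Dll4 at 1 place each, and Notch3 and Nrarp at 2 places each. In Dll4 it stood 75 to 70 bases before the start. The Jag1 window held no match to these letters. A match of letters describes the window and does not show that a factor binds there.

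Hom livers held more RNA of the receptor Notch2, the ligand Jag1 and Rbpj than WT livers, and less of the ligand Dll4 (a call lost in 11 of 14 alternative fits), as tested by the quasi-likelihood method of edgeR. Each log2 fold change is of Hom over WT with its standard error after ±, from 3 mice a group, and each p was adjusted by Benjamini-Hochberg over the 13805 genes. Thus 3 of the 10 genes were higher, against 21.5% of all tested genes, and 1 was lower, against 20.1% of all tested genes. With 10 genes these counts are near the background, and nothing particular to the Notch genes is read from them. The median log2 fold change of the 10 was 0.51, and that of all tested genes was −0.0018. The groups did not overlap in CPM for 8 of the 10 genes, against 55.6% of all tested genes.

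**Figure D1:**
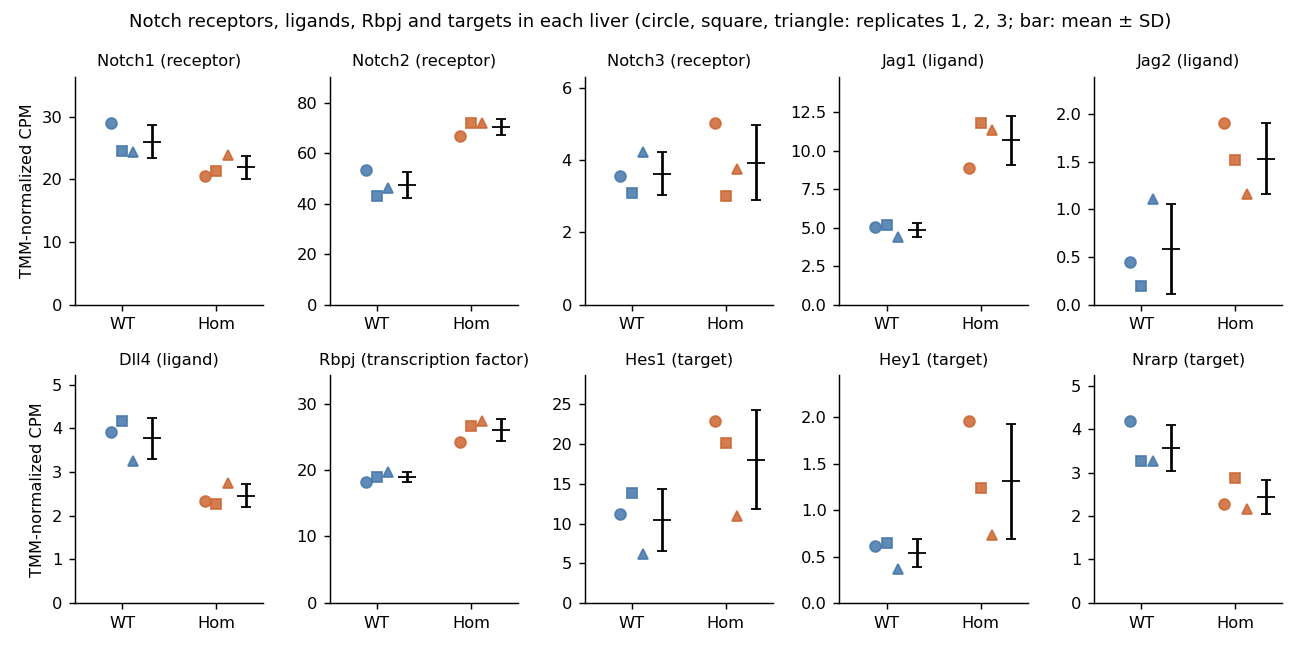
Each panel plots 1 gene's TMM-normalized CPM (y axis from 0) in 3 WT and 3 Hom livers, with replicates 1, 2 and 3 as circle, square and triangle, and the group mean with its SD as a bar. Notch2, Jag1 and Rbpj lay higher in all 3 Hom livers, Dll4 lay lower in all 3, and Hes1 was lowest in replicate 3 of each group.

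Among the receptors, Notch2, the receptor that bile duct formation is known to need, was at 53.2, 43.2 and 46.3 CPM in WT replicates 1 to 3 and at 66.7, 72.1 and 72.1 CPM in Hom replicates 1 to 3. Every Hom liver was above every WT liver. This was a 1.48-fold higher level (log2 fold change 0.56 ± 0.097, with an adjusted p of 0.00476). The log2 fold change was 0.34 after a correction for gene length and 1.01 with library size alone. Less the median of all genes in the same fit, these were 0.47 and 0.56. Notch1, a receptor of endothelial and many other cells, was at 29.0, 24.6 and 24.4 CPM in WT livers and at 20.4, 21.4 and 23.9 CPM in Hom livers. The groups did not overlap, but the closest livers were 24.4 and 23.9 CPM, and the log2 fold change of −0.25 ± 0.11 did not pass the test (edgeR, adjusted p of 0.104). Its unadjusted 95% interval ran from −0.50 to 0.0061. Its sign was not stable to scaling: with library size alone the log2 fold change was 0.20, where the median of all genes was 0.45, so that Notch1 lay below the typical gene under both scalings. A correction of each library for gene length brought it to −0.47 (edgeR, adjusted p of 0.00759), where the median of all genes was −0.13. Notch3, a receptor of smooth muscle cells and pericytes, was at 3.57, 3.08 and 4.24 CPM in WT livers and at 5.04, 3.01 and 3.75 CPM in Hom livers. These groups overlapped, with a log2 fold change of 0.11 (unadjusted 95% interval −0.48 to 0.70), and without Hom replicate 1 the value was −0.10.

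Among the ligands, Jag1, whose loss causes a shortage of bile ducts in Alagille syndrome, was at 5.03, 5.20 and 4.36 CPM in WT livers and at 8.87, 11.8 and 11.4 CPM in Hom livers. The lowest Hom liver, replicate 1, was still above all WT livers. Its mean rose from 4.86 ± 0.440 to 10.7 ± 1.60 CPM (SD, n = 3 mice, log2 fold change 1.14 ± 0.16, with an adjusted p of 0.00244), and it passed the threshold under all 14 alternative fits, with log2 fold changes from 0.91 to 1.60. Dll4, the Delta-like ligand of endothelial cells, was at 3.91, 4.17 and 3.26 CPM in WT livers and at 2.33, 2.27 and 2.76 CPM in Hom livers. All Hom livers lay below all WT livers. The log2 fold change was −0.62 ± 0.20 (edgeR, adjusted p of 0.0439), close to the threshold, and it passed in only 3 of 14 alternative fits. Leaving out WT replicate 1 or 2 raised the adjusted p of edgeR to 0.0821 or 0.126. Leaving out Hom replicate 1, 2 or 3 raised it to 0.0993, 0.139 or 0.0809. The log2 fold change with 1 liver left out was −0.72 to −0.55, about as large as with all 6, from fewer livers. With library size alone the log2 fold change of Dll4 was −0.17 (edgeR, adjusted p of 0.562), which is 0.62 below the median of all genes under that scaling, as it was with TMM factors. Jag2, the other Jagged ligand, had few counts: 8, 3 and 18 in WT livers and 41, 37 and 27 in Hom livers. Its log2 fold change of 1.39 had a standard error of 0.55 and did not pass (edgeR, adjusted p of 0.0837). Without WT replicate 3, the WT liver with the most Jag2, it was 2.21 (edgeR, adjusted p of 0.0197). Without WT replicate 2, the WT liver with the least, it was 0.98 (edgeR, adjusted p of 0.181).

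Rbpj, which encodes the DNA-binding partner of the Notch intracellular domain, was at 18.1, 18.9 and 19.7 CPM in WT livers and at 24.2, 26.5 and 27.4 CPM in Hom livers. The spread within each group was small against the gap between them. Rbpj was 1.38-fold higher (log2 fold change 0.46 ± 0.087, with an adjusted p of 0.00660). The value was 0.24 after the correction for gene length, where it no longer passed (edgeR, adjusted p of 0.0523). Less the median of all genes, Rbpj was at 0.37 with that correction and at 0.46 without it.

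None of the 3 target genes passed the test. Hes1, a repressor of the basic helix-loop-helix class, was at 11.2, 13.9 and 6.21 CPM in WT livers and at 22.9, 20.2 and 11.0 CPM in Hom livers. Replicate 3 was the lowest liver of each group, and Hom replicate 3 fell within the WT range. The log2 fold change was 0.79 ± 0.36 (edgeR, adjusted p of 0.115), with an unadjusted 95% interval from −0.051 to 1.63. Without Hom replicate 1 it was 0.58 (edgeR, adjusted p of 0.274). Hey1, a related repressor of endothelial and biliary cells, had 11, 10 and 6 counts in WT livers and 42, 30 and 17 counts in Hom livers. The groups did not overlap in CPM, and again replicate 3 was the lowest of each. Its log2 fold change of 1.26 ± 0.46 did not pass the test (edgeR, adjusted p of 0.0622), but did without Hom replicate 3 (1.55, edgeR, adjusted p of 0.0490). It did not pass without any other single liver, and was 0.86 without Hom replicate 1 (edgeR, adjusted p of 0.165). Nrarp, which encodes a small ankyrin repeat protein that dampens Notch signalling, was at 4.19, 3.27 and 3.26 CPM in WT livers and at 2.29, 2.89 and 2.16 CPM in Hom livers. All Hom livers lay below all WT livers, in the direction opposite to Hes1 and Hey1, with a log2 fold change of −0.55 ± 0.22 that did not pass (edgeR, adjusted p of 0.0847). Nrarp passed the test only with the correction for gene length (−0.68, edgeR, adjusted p of 0.0384), and less the median of all genes it was at −0.55 with or without that correction.

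**Figure D2:**
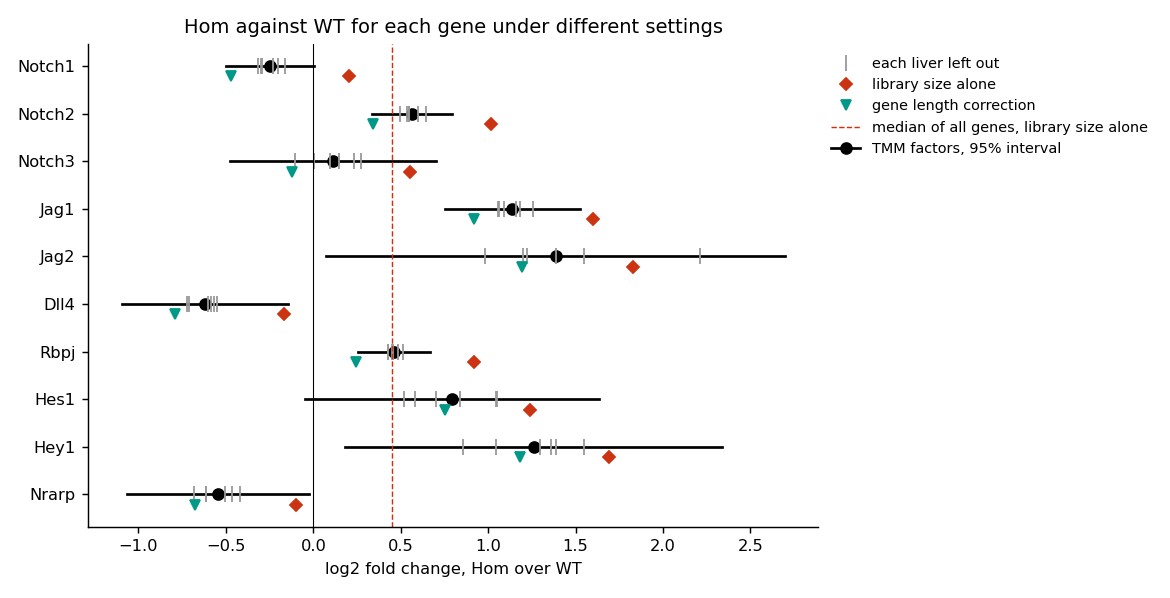
For each of the 10 genes (y axis) the log2 fold change of Hom over WT (x axis) is drawn with TMM factors as a black point with its unadjusted 95% interval, with 1 liver left out as grey ticks, with library size alone as red diamonds and with the gene length correction as green triangles. The log2 fold change of Jag1 did not fall under 0.91 in any of these fits, while its 95% interval began at 0.75. Each red diamond lies to the right of its black point, where the median of all genes under that scaling, the dashed line, was 0.45.

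Because a share within a liver does not depend on how libraries are scaled to each other, the make-up of receptors and ligands was also compared. TPM values (a level per gene length that adds up to the same total in each liver) were summed over Notch1 to Notch4, and over Jag1, Jag2, Dll1, Dll3 and Dll4. Notch2 made up 53.3%, 51.7% and 54.7% of receptor TPM in WT livers and 64.2%, 67.9% and 65.2% in Hom livers, a difference of means of 12.5 percentage points. The share of Notch1 was 32.2%, 32.6% and 31.9% in WT livers and 21.8%, 22.3% and 24.0% in Hom livers. These shares did not overlap between groups, with spreads (SD, n = 3 mice) of 0.326 to 1.93 percentage points, while those of Notch3 and Notch4 did overlap.

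Among the ligands, the share of Jag1 was higher and that of Dll4 lower in all 3 Hom livers than in any WT liver. Jag1 made up 20.1%, 24.8% and 24.2% of ligand TPM in WT livers and 33.9%, 42.8% and 43.9% in Hom livers. The share of Dll4 was 28.9%, 32.5% and 33.1% in WT livers and 15.7%, 15.2% and 21.0% in Hom livers. Neither pair of groups overlapped. The share of Dll1, a further Delta-like ligand, overlapped between groups, at 40.1% ± 8.02 (SD, n = 3 mice) in WT and 33.9% ± 5.10 in Hom livers. For the shares of Notch1, Notch2, Jag1 and Dll4 the exact two-sided permutation test gave p = 0.1, and no design of 3 mice against 3 can give less. Set against each other in the same liver, a ratio chosen after these shares were seen, Jag1 TPM was 0.693, 0.762 and 0.732 times Dll4 TPM in WT livers and 2.16, 2.81 and 2.09 times in Hom livers. Likewise Notch2 TPM was 1.66, 1.59 and 1.71 times Notch1 TPM in WT livers and 2.94, 3.05 and 2.72 times in Hom livers.

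**Figure D3:**
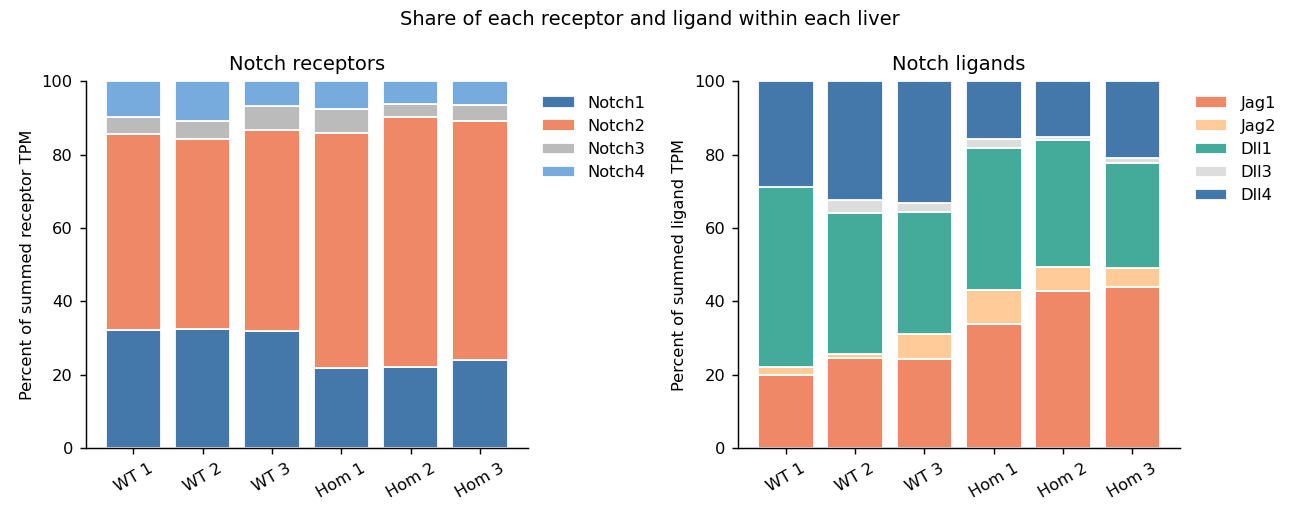
Stacked bars show, for each of the 6 livers, the percent of summed receptor TPM held by Notch1 to Notch4 (left) and of summed ligand TPM held by Jag1, Jag2, Dll1, Dll3 and Dll4 (right). Notch2 took 51.7% to 54.7% in WT and 64.2% to 67.9% in Hom livers, and Jag1 took 20.1% to 24.8% in WT and 33.9% to 43.9% in Hom livers.

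Within each group, the 10 genes were ordered by TPM. In WT livers Hes1 stood first at 10.9 ± 4.20 TPM (SD, n = 3 mice), followed by Notch2 at 6.62 ± 1.48, Rbpj at 4.82 ± 0.356 and Notch1 at 4.00 ± 0.880. Next came Nrarp at 2.06 TPM, Dll4 at 1.75, Jag1 at 1.27, Notch3 at 0.657, Hey1 at 0.393 and Jag2 at 0.173. In WT livers the ranges over 3 mice overlapped between the neighbours Hes1 and Notch2, Rbpj and Notch1, Nrarp and Dll4, Notch3 and Hey1, and Hey1 and Jag2. In Hom livers Hes1 stood first again at 28.8 ± 9.25 TPM, then Notch2 at 14.9 ± 1.69, Rbpj at 10.5 ± 1.35 and Notch1 at 5.16 ± 0.673. Jag1 followed at 4.32 ± 0.943 TPM, before Nrarp at 2.15 and Dll4 at 1.85, both of which stood before it in WT livers. Hey1 at 1.32 TPM, Notch3 at 1.07 and Jag2 at 0.733 closed the order. In Hom livers the ranges of Notch1 and Jag1 overlapped, as did those of each neighbouring pair from Nrarp to Jag2. TPM is fixed to the same sum in every liver and was not scaled with TMM factors, so these levels serve for the order within a group and not for differences between groups.

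The rest of the pathway was taken from a list of 48 further genes grouped by role, of which 45 were tested. Of these, 13 were higher and 8 were lower in Hom livers, which is near the background shares given above, and the median log2 fold change was 0.043. The counts depended on single livers: they were 7 higher and 3 lower without WT replicate 2, 6 and 7 without WT replicate 3, 7 and 4 without Hom replicate 2, and 7 and 3 without Hom replicate 3. With library size alone they were 24 and 0, and with the correction for gene length 7 and 14. The remaining receptor Notch4 and the ligand Dll1 did not pass the test, with log2 fold changes of −0.19 and 0.059. Of the other HES and HEY targets, Heyl had a log2 fold change of −0.10 (edgeR, adjusted p of 0.753), Hey2 had 3 to 9 counts per liver and Dll3, a ligand of the Delta-like family, 0 to 6, so neither of the last 2 was tested. Hes5 was not analysed here.

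Of the 13 genes that handle the ligands and turn over the receptors, 6 were higher and 3 lower, against the 21.5% and 20.1% of all tested genes. The counts fell to 4 and 0 without WT replicate 2, Hom replicate 2 or Hom replicate 3, and were 4 and 2 without WT replicate 3, 5 and 2 without WT replicate 1 and 6 and 1 without Hom replicate 1. Neurl1a, a ubiquitin ligase of the Neuralized family that acts in ligand endocytosis, had 9, 5 and 5 counts in WT livers and 119, 97 and 102 in Hom livers. That is a 12.1-fold higher level after scaling (log2 fold change 3.59 ± 0.30, with an adjusted p of 4.69e-04), the largest of the list. The Deltex genes Dtx3 and Dtx1, of a family of ubiquitin ligases known to act on the receptor, were higher with log2 fold changes of 1.59 and 1.70. Another gene of that family, Dtx2, was lower (−0.46), and Dtx3l (0.38) and Dtx4 (0.031) did not pass. The other lower genes of this group were Numb (−0.31), an inhibitor of Notch, and the ubiquitin ligase gene Itch (−0.27). Numbl, a gene of the same family as Numb, went the opposite way and was higher (1.58, edgeR, adjusted p of 0.00707). Neurl1b and Mib2 were the remaining higher genes. Dtx1 was at 1.34, 1.22 and 1.29 CPM in WT livers and at 4.01, 4.16 and 4.40 CPM in Hom livers.

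Of the 10 genes that cut the receptor, Adam10, the protease of the first ligand-induced cut, was higher (log2 fold change 0.80 ± 0.085, with an adjusted p of 9.38e-04), at 25.0, 25.0 and 26.8 CPM in WT and 42.2, 48.4 and 42.5 CPM in Hom livers. Psenen, a gamma-secretase subunit, and Furin, which cleaves the receptor before it reaches the surface, were lower with log2 fold changes of −0.45 and −0.49. The other 7 did not pass. Of these, Aph1b and Aph1c are close copies of one another, so reads may be split between them. Of the 10 genes, 1 was lower without WT replicate 2, Hom replicate 2 or Hom replicate 3, and 3 without Hom replicate 1. Without WT replicate 1, 2 were higher. With library size alone 6 were higher and 0 lower. Of 5 genes that glycosylate the receptor, the Fringe gene Rfng was lower (log2 fold change −0.57) and Poglut1, an O-glucosyltransferase, was higher (0.47). The count of higher genes was 0 without WT replicate 3, and 2 without WT replicate 1 or Hom replicate 1. Of all tested genes 21.5% were higher and 20.1% lower, beside which the counts of this paragraph stand. Of 14 nuclear cofactors, 5 were higher and 2 lower. The 5 higher fell to 1 without WT replicate 2, WT replicate 3, Hom replicate 2 or Hom replicate 3 and to 3 without WT replicate 1, and the 2 lower fell to 1 without WT replicate 2 or Hom replicate 3. The acetyltransferase genes Kat2b and Crebbp, coactivators of many transcription factors, were the lower ones, with log2 fold changes of −0.59 and −0.46, and the corepressor gene Ctbp2 was higher (0.95).

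**Figure D4:**
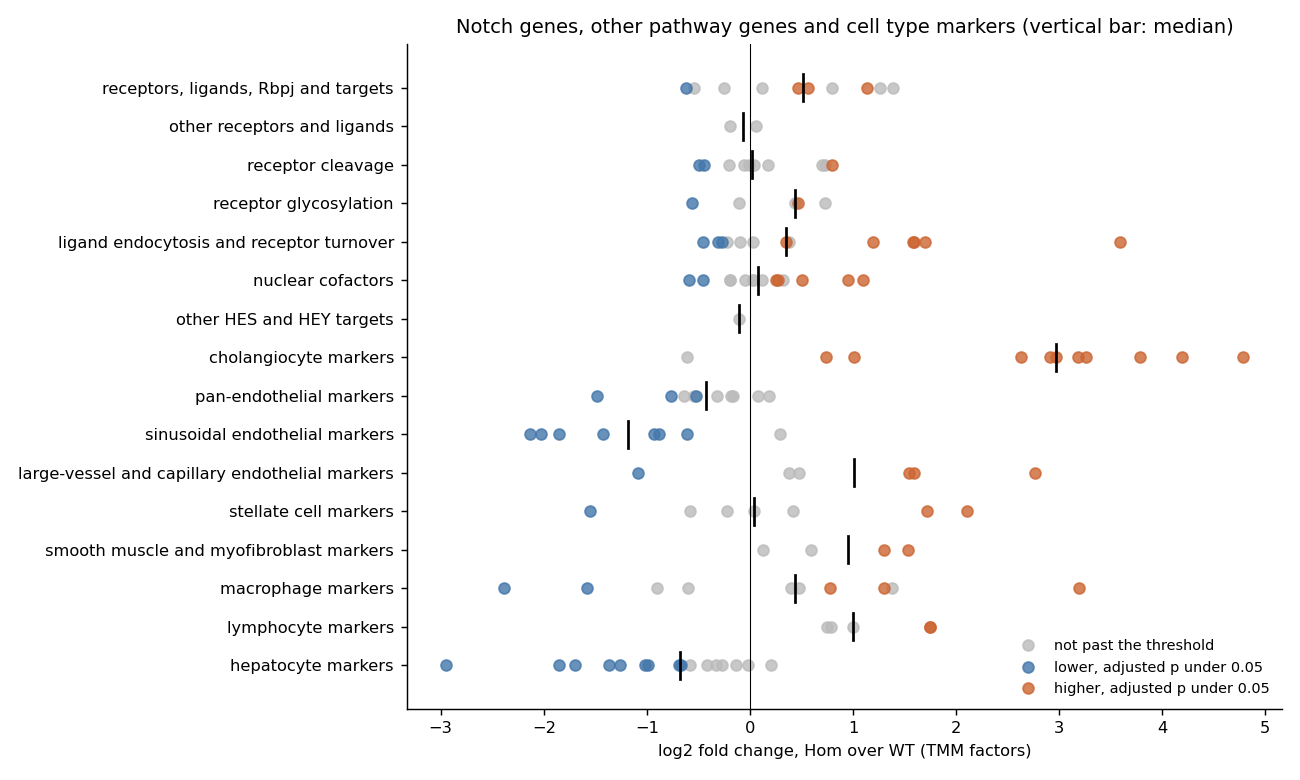
Each point is 1 tested gene, placed by its log2 fold change of Hom over WT with TMM factors (x axis) and by its list (y axis), and coloured by whether it was higher, lower or not past an adjusted p of 0.05. The cholangiocyte markers lie furthest to the right with a median of 2.97, the sinusoidal endothelial markers furthest to the left with −1.18, and the Notch genes between them.

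The Notch genes belong to several cell types whose markers differed between the groups, and the part of these in the results was not tested. Beside the counts below, 21.5% of all tested genes were higher and 20.1% were lower. Beside Jag1 and Notch2, which bile duct cells express, stand the cholangiocyte markers, with a median log2 fold change of 2.97. Krt7, Krt19 and Epcam, structural and adhesion genes of bile duct cells, rose by 2.63, 3.26 and 3.18 on the log2 scale, more than any of the 10 Notch genes. Beside Dll4 and Notch1, which endothelial cells express, stand 3 endothelial lists. Of 10 pan-endothelial markers 3 fell and none rose, with a median of −0.42 and summed levels of 118 to 157 CPM in WT and 94.1 to 106 CPM in Hom livers. With 1 liver left out 1 (without Hom replicate 3) to 5 (without WT replicate 3) fell, and 2 without Hom replicate 2. With library size alone their median was 0.031, with 2 higher and 1 lower. Pecam1 had a log2 fold change of 0.078 and Cdh5 one of −0.54, neither past the test, while Kdr, the VEGF receptor gene, fell by 1.48. The sinusoidal markers had a median of −1.18, with Clec4g at −2.13 and Stab2 at −0.88, both past the test, and Lyve1 at 0.29, which was not. Of 6 markers of larger vessels and capillaries, 3 rose and 1 fell, among them Vwf (1.59), Cd34 (2.76) and Plvap (−1.09), and their summed level was 70.4 to 104 CPM in WT and 77.9 to 81.1 CPM in Hom livers. Beside Notch3 stand the smooth muscle and myofibroblast markers, of which 2 of 4 tested rose (Acta2 by 1.30 and Tagln by 1.53, while Myh11 was at 0.12), with a summed level of 38.8 to 39.7 CPM in WT and 57.7 to 77.7 CPM in Hom livers. That count was 1 without WT replicate 2, Hom replicate 2 or Hom replicate 3. Of 7 stellate cell markers, 2 rose and 1 fell: Pdgfrb rose by 1.72 and Pdgfra by 2.11, while Des was at 0.42 and did not pass. The one that fell was Reln (by 1.55), and Lrat at −0.22, Colec11 at −0.59 and Hand2 at 0.036 did not pass. The summed level of macrophage markers was 458, 203 and 193 CPM in WT replicates 1 to 3 and 315 to 416 CPM in Hom livers, so WT replicate 1 stood apart from the other WT livers. Of 10 such markers 3 were higher (Cd68 by 0.78, Lyz2 by 1.30 and Ccr2 by 3.19) and 2 lower (Clec4f at −1.59 and Timd4 at −2.38, both of resident Kupffer cells). Adgre1 at 0.40, Csf1r at 0.48, Itgam at 1.37, Vsig4 at −0.60 and Marco at −0.91 did not pass. Without WT replicate 1, 6 were higher and 1 lower, without WT replicate 2, WT replicate 3 or Hom replicate 2, 1 was higher and 2 lower, without Hom replicate 3, 1 and 1, and without Hom replicate 1, 3 and 1. Of 5 tested lymphocyte markers, 2 were higher, Cd3e by 1.74 and Cd3g by 1.74, and Cd79a at 1.00 did not pass, at summed levels of 2.21 to 6.48 CPM in WT and 6.67 to 10.3 CPM in Hom livers. None of these lymphocyte markers passed without WT replicate 2, Hom replicate 2 or Hom replicate 3, while 1 did without WT replicate 3 and 3 did without WT replicate 1, and none had at least 10 counts in every liver.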

How the data were processed

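RNA of whole liver from 3 Hom and 3 WT mice was sequenced on the DNBSEQ platform. The submitters' processing notes name HISAT2 2.0.4, Bowtie2 2.2.5, RSEM 1.2.12 and the build mm9. Annotation and strandedness are not given in the sources used here. The authors deposited estimated counts (expected counts, 65.9% of them whole), FPKM and TPM values per liver. The authors' FPKM values are divided by gene length and library size, and their TPM values add up to the same total in every liver. The 6 deposited columns of group means were not used: each one named for a group equals the mean of the other group's livers.

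Counts were rounded to whole numbers. In edgeR 4.0.16 (R 4.3.3) they were filtered with filterByExpr, scaled with TMM factors (0.806 to 0.924 in WT and 1.09 to 1.23 in Hom livers), and tested with glmQLFit and glmQLFTest. Genes with an adjusted p under 0.05 were called, with no minimum fold change. The standard error is the log2 fold change over the root of F. No 2 livers of a group were alike within sampling noise (a chi-square at least 22.3 times its degrees of freedom). Each library is 1 mouse, so p-values measure the spread between mice. Alternatives were DESeq2 1.42.0, other scalings and filters, the replicate block, a loess correction (span 0.3) for the gene length implied by counts and FPKM, each liver left out, and a minimum log2 fold change of 1 in size. Shares of TPM were compared by an exact two-sided permutation test. The test procedure was tested on simulated data.

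The members and lists were chosen with earlier results of these data known. Named were the 10 members, Nek7, Notch4, Dll1, Dll3, Hes5, Hey2 and Heyl, the called genes of each other role (up to 3, by adjusted p), the first 3 genes of each marker list, and the 3 nearest profiles to a receptor, ligand and target. The promoters of Notch2, Jag1, Dll4 and Rbpj, Ddx3y, and the Aph1b and Aph1c pair were added after values were seen. So were Numb, Itch, Numbl, Neurl1b, Mib2 and the other Deltex, stellate and macrophage genes. Promoters are RefSeq entries on GRCm38.p6, another build than the authors', so their coordinates belong to GRCm38.p6 alone. Counting error limits genes with under about 20 counts, such as Jag2 and Hey1.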

Additional observations from a re-analysis of the deposited data

How the results depend on the processing

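With the replicate number as a block, 4 of the 10 Notch genes were higher, Hes1 now among them (log2 fold change 0.80, adjusted p = 0.0147 from edgeR), and 0 were lower. The replicate block was used only in alternative fits, since same-numbered livers are different mice and did not deviate together (correlations −0.079, −0.039 and −0.018, and 0 of 6 livers correlated best with their own number).

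Library size alone gave 6 Notch genes higher (Jag2, Hes1 and Hey1 added) and 0 lower, 24 and 0 of the other pathway genes, and 6574 and 642 of all genes, of which 91.1% were higher against 51.7% with TMM factors. This share was 62.8% with upper-quartile factors and 37.9% with the length correction. Library size alone turned Notch1 to 0.20. The length correction gave 3 Notch genes lower (Notch1, Dll4 and Nrarp), 7 pathway genes higher and 14 lower, and turned Notch3 to −0.12, while it moved the median of all genes to −0.13, so that Notch3 less that median was 0.0078. With the length correction and the block together, Notch3 was at −0.14, and 5 pathway genes and 1970 of all genes were higher. Notch2 was then at 0.35 and no longer passed (adjusted p = 0.0551 from edgeR). Dll4 lost its call, leaving 0 lower, with DESeq2, upper-quartile factors and no filter as well. Upper-quartile factors left 5 pathway genes lower. A minimum absolute log2 fold change of 1 left 1 Notch gene higher and 0 lower, 6 and 0 of the pathway genes, and 1825 and 575 of all genes. With 1 liver left out, 0 to 1 Notch genes were lower, 6 to 13 pathway genes were higher and 3 to 7 lower, 1767 to 2750 of all genes were lower, and Notch3 ranged from −0.10 to 0.27. Over FPKM, counts and each liver left out, the difference in share (Hom less WT, percentage points) was 11.4 to 13.3 for Notch2, −10.2 to −9.09 for Notch1, 15.4 to 20.3 for Jag1 and −16.0 to −13.1 for Dll4, and that of Dll1 was −1.73 without WT replicate 1. The order of levels was the same with FPKM. Within a liver FPKM and TPM differ only by a constant factor, so FPKM is no separate check of the order within a liver or of the shares. Depth limits Jag2 and Hey1, which at least 10 counts in every liver removed.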

Other observations

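Among tested genes with a mean of at least 1 CPM, those whose profile over the 6 livers was most like a Notch gene were found by the root mean square difference of centred log2(CPM + 0.5) values. For Notch2 they were Dcp1b, an mRNA decapping gene (difference 0.040), Itgb5, an integrin chain (0.050), and Psd (0.053). For Jag1 they were Myo9b, an unconventional myosin (0.042), Prdm16, a transcriptional regulator (0.078), and Tnfrsf18, a TNF receptor family gene (0.078). For Hey1, the target with the smallest adjusted p, they were Rnd2 (0.10), Ggt5 (0.12) and Ccdc189 (0.13). These are descriptions over 6 livers in 2 groups, in which a shared difference between the groups is enough to make profiles alike.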
